A study of Mus musculus with 6 samples.

Results

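Brown and white preadipocytes were compared on day 0, when the cultures were confluent and had not been induced to differentiate. The comparison covers 13391 genes, those that reached an FPKM (fragments per kilobase of exon and M mapped fragments) of 1 or more in either library, out of 34465 gene symbols in the table of the whole series. The BAT cells came from the interscapular brown depot and the WAT cells from the inguinal white depot of 8 BL6 mice aged 3 weeks, as stromal vascular cells grown in culture, and neither culture carried a transgene or had received norepinephrine. Each condition was sequenced as 1 library, so day 0 rests on 1 BAT and 1 WAT library of the 6 in the series and has no replicate, no test and no error on any difference. Whether animals were pooled within a library was not given in the sources used here. The white columns of the table are headed SUB, and they were taken as the WAT cells because the inguinal depot is subcutaneous. Depth, estimated from the steps between low values, was about 17.5 M fragments for BAT and 9.15 M for WAT, so low values are less certain in WAT. A value listed at 0 need not mean absence, since *Hmgcs1*, an enzyme of sterol synthesis that dividing cells use, was listed at 0 in both libraries.

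Preadipocytes are fibroblast-like cells of fat tissue that are committed to become fat cells once they receive inducing hormones. Brown preadipocytes of the interscapular depot arise near skeletal muscle in the upper trunk, whereas inguinal white preadipocytes come from the lower flank, and both keep the transcription factor code of their body region in culture. Brown fat cells later burn fuel as heat through the uncoupling protein Ucp1, and white fat cells store it. Cells at the preadipocyte stage make matrix, respond to growth factors and to mechanical tension, and can still divide.

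Both cultures carried the markers of stromal preadipocytes. *Ly6a*, which encodes the surface protein Sca-1, was at 600.0 FPKM in BAT against 600.2 in WAT. *Pdgfra*, the platelet-derived growth factor receptor of fat progenitors, was at 92.8 FPKM in BAT against 27.6 in WAT, and *Dlk1*, a membrane protein that marks undifferentiated preadipocytes, at 72.8 FPKM in BAT against 58.6 in WAT. Of 26 listed stromal markers 23 were measured, and 16 of them lay above the median of genes of similar length, toward BAT (median of this relative difference, defined below, 0.46). The list took 0.735% of the FPKM sum in BAT and 0.489% in WAT. Of the 23 markers, 2 passed the filter of 1 FPKM only through BAT, *Dpp4* and *Sema3c*, which fixed their direction. The cultures differed in genes of body position. *Zic1*, a transcription factor of brown preadipocytes, stood at 14.5 FPKM in BAT against 0.0852 in WAT, while *Hoxc10*, a posterior Hox gene of white fat, was listed at 0 in BAT and stood at 14.9 in WAT.

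Before single genes can be read, the libraries have to be placed beside each other. The difference used throughout is log2(FPKM + 1) of BAT minus that of WAT, a scale that understates the difference of low genes. At least 2-fold higher in BAT were 2988 genes (22.3% of 13391) and at least 2-fold lower 1867 (13.9%). This split moved with the scaling, and the FPKM sum was 1.603 times as large in WAT. The share of calls that were higher in BAT was 61.5% as deposited, 45.6% after median-ratio scaling and 87.7% as TPM, where the median of all genes stood at 0.27, 0.03 and 0.88.

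The difference followed the length of the transcript. Across 12049 protein-coding genes the Spearman correlation of the difference with median transcript length was 0.47, and 0.54 with the longest transcript. Genes are not independent replicates, and no p is given. In 20 bins of equal size the median went from -0.72 in the shortest transcripts (100 to 483 bases) to 0.17 in the bin around 1985 bases and 1.04 in the longest (6002 to 19805 bases). Of the 667 genes in the longest bin, 354 were at least 2-fold higher in BAT and 17 lower, against 176 and 298 of 668 in the shortest. Protein-coding transcripts under 1000 bases took 30.6% of the FPKM sum in BAT and 48.5% in WAT, and those of 3000 bases or more took 17.3% and 7.26%.

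The trend was steepest among highly expressed genes. In the shortest of 5 equal groups of protein-coding genes the median difference was -0.04 in the lowest expression group and -1.17 in the highest, whereas in the longest of these groups it was 0.73 and 0.82. The difference also moved with the GC content of the transcript (Spearman correlation -0.28 across protein-coding genes), whose part in the trend was not tested. In the estimate of depth, the best fit took 230 bases off the transcript length in BAT and 180 in WAT. Whether this takes part in the trend was not tested. The correlation with length on later days was 0.24 on day 4 and -0.07 on day 6.

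**Figure D1:**
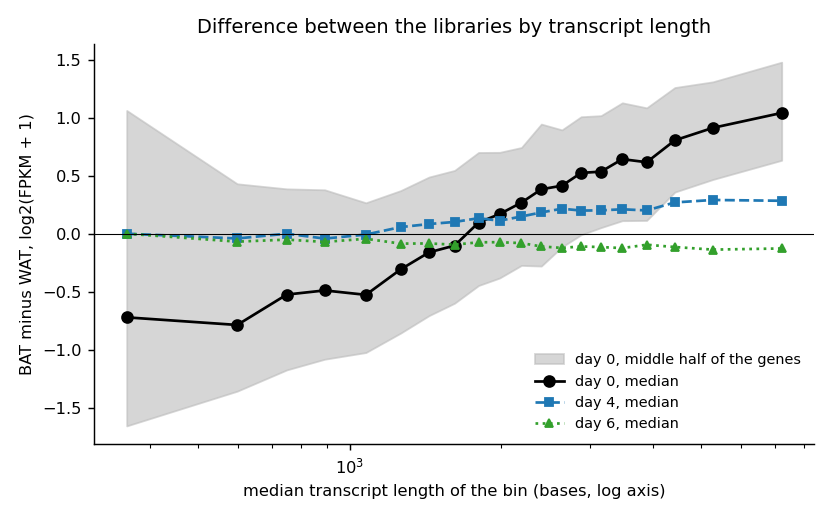
Median difference between BAT and WAT, in log2(FPKM + 1), in 20 bins of genes by transcript length (log axis), with the interquartile range of day 0 shaded. On day 0 the medians run from below 0 in short to above 1 in the longest transcripts, while those of day 6 lie between -0.14 and 0 in every bin.

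Genes were therefore read against genes of similar length. The relative difference is the difference of a gene minus the median of its length bin, so 0 stands for the middle of genes of its length. It depends less on the scaling of the libraries than the difference itself, but not in low genes, where as TPM the median of the white and beige markers went from -1.28 to -2.04. With a pseudocount of 5, which weighs low genes less, the median relative difference of 40 of 84 gene lists was over 1.5 times smaller in size and that of 11 over 1.5 times larger. The relative difference was available for 13350 genes, of which 1917 were at least 2-fold higher in BAT (14.4%) and 1508 lower (11.3%). Relative to genes of similar length and similar expression these shares were 12.2% and 11.5%. These shares are the background for every gene list below. With bins of GC content in place of length, the share of calls that were higher in BAT was 41.9% instead of 56.0%. Across protein-coding genes the relative difference had a Spearman correlation of -0.02 with length.

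The Hox genes separated the depots along the body axis. Hox genes encode homeodomain transcription factors that lie in 4 clusters, and within a cluster low numbers are used toward the head and high numbers toward the tail. Of the 39 Hox genes listed, 28 were measured, and 13 of them were at least 2-fold higher and 6 lower in BAT, beside 22.3% and 13.9% of all genes. All 13 measured genes with paralog numbers 1 to 5 were higher in BAT, 10 of them at least 2-fold, with a median difference of 1.42. Of 7 measured genes with numbers 9 to 13, 6 were at least 2-fold lower in BAT and the median was -2.24. The 8 genes with numbers 6 to 8 lay between, 4 on either side of 0, with a median of 0.26. This grouping was chosen after the values were seen. The other 11 Hox genes stayed under 1 FPKM in both libraries, and 7 of the 13 and 5 of the 7 passed this filter only through the library in which they were higher, which fixed their direction. Relative to genes of similar length the medians were 1.28, -1.71 and 0.77 in the same order.

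In the HoxA cluster, *Hoxa2* stood at 2.67 FPKM in BAT against 0.0972 in WAT, *Hoxa3* at 9.79 and 0.716 and *Hoxa5* at 7.17 and 1.86. These anterior members were all higher in BAT. At the other end of the cluster *Hoxa9* was listed at 0 in BAT and stood at 3.72 FPKM in WAT, and *Hoxa10* was listed at 0 and stood at 7.64. Between these ends, *Hoxa6* was at 3.13 FPKM in BAT and listed at 0 in WAT, and *Hoxa7* was at 3.69 and 5.81 FPKM in BAT and WAT.

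In the HoxC cluster, *Hoxc4* was at 6.42 FPKM in BAT against 2.59 in WAT and *Hoxc9* at 0.558 and 10.4. *Hoxc10* was listed at 0 in BAT against 14.9 in WAT and *Hoxc11* at 0 against 1.78, so the 3 measured members from *Hoxc9* on were higher in WAT. *Hoxc6* and *Hoxc8*, in the middle, were at 17.7 and 11.1 and at 6.41 and 8.38 FPKM in BAT and WAT. HoxB and HoxD were expressed on both sides. *Hoxb3* was at 6.67 FPKM in BAT against 0.407 in WAT and *Hoxd3* at 8.09 and 0.979, while *Hoxb9* was at 2.87 and 7.06 and *Hoxd9* differed little at 3.12 and 2.99. *Hoxd8* was the highest Hox gene of the BAT library at 26.04 FPKM, against 9.98 in WAT.

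**Figure D2:**
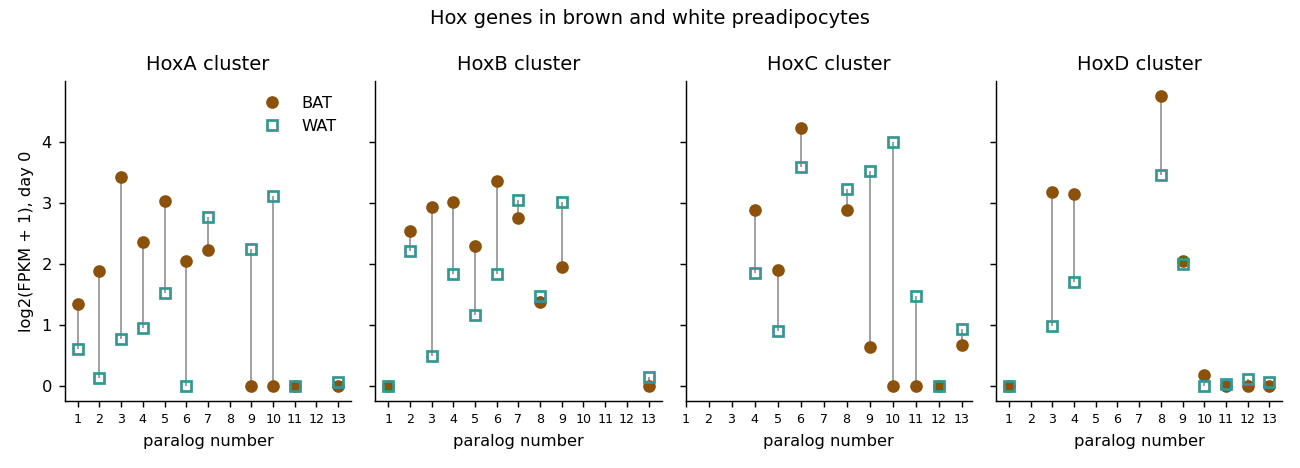
Level of each Hox gene of the table on day 0, as log2(FPKM + 1), by its paralog number in the 4 clusters, with BAT as filled circles and WAT as open squares, 1 library each. Low numbers sit higher in BAT, and in the HoxA and HoxC clusters the expressed members from number 9 on sit higher in WAT.

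The study compared the promoter methylation of *Hoxa2*, *Hoxa5*, *Hoxc4*, *Hoxc9* and *Hoxc10* between the cell types, and methylation sits on the C of the dinucleotide CG. The promoter windows of these genes, of which 3 were matched in RefSeq, are therefore shown with every CG in capitals, and *Hoxa10*, listed at 0 in BAT, was added after its values were seen. Each window runs from 250 bases before to 50 after the start of the gene (RefSeq, GRCm38.p6, a later build than the mm9 of the files), 5′ to 3′ on the strand of the gene.
Hoxa2, chr6:52164782-52165081, minus strand: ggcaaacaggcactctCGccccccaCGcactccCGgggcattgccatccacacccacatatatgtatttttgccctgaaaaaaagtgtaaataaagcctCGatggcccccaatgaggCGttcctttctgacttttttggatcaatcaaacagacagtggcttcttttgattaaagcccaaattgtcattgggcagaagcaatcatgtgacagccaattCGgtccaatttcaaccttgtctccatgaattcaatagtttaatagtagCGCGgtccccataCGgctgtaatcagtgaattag
Hoxa5, chr6:52204538-52204837, minus strand: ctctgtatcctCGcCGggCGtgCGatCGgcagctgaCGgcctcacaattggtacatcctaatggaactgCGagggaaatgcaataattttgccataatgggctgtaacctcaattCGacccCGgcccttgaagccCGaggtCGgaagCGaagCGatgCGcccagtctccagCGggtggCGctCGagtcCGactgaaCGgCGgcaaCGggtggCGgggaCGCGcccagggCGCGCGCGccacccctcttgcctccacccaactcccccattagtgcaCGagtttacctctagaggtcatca
Hoxc4, chr15:103034145-103034444, plus strand: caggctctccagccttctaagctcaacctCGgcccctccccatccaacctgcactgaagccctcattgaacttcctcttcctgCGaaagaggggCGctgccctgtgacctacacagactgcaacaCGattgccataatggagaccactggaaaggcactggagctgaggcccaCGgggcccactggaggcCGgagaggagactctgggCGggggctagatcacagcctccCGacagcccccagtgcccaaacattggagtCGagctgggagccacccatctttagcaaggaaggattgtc
Hoxa10, chr6:52240805-52241104, minus strand: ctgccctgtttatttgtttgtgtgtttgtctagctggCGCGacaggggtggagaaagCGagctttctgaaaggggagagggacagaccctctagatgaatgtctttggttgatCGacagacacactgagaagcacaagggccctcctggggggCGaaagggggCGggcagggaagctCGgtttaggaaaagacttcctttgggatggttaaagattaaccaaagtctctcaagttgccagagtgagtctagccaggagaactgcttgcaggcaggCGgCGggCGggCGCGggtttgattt
The window of *Hoxa5* holds 29 CG, which 12.93% of all 32851 windows reach. Those of *Hoxa2* and *Hoxc4* hold 9 CG each, reached by 45.8%, and that of *Hoxa10* holds 12, reached by 39.6%, against a median of 7. A second *Hoxa10* window in the table holds 21. The window of *Hoxa9*, also listed at 0 in BAT and not shown, holds 4, reached by 68.6%. The windows of the 3 genes higher in BAT thus held both fewer and more CG than those of *Hoxa10*, and more than that of *Hoxa9*. Methylation was not analysed here.

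Other developmental factors as a list stood near the background. Of 44 measured, 6 were at least 2-fold higher relative to length and 5 lower, with a median of 0.19. Of the 44, 8 passed the filter of 1 FPKM only through BAT and 3 only through WAT, which fixed their direction. *Six2* and *Pitx1* below are among them. The following members were picked after their values were seen. *Lhx8*, a LIM homeodomain factor, was at 23.4 FPKM in BAT against 2.39 in WAT, and *Six2*, a factor known from craniofacial and kidney development, at 2.96 and 0.112. Both were higher in BAT by more than 2-fold. *Emx2* was at 6.15 FPKM in BAT against 19.7 in WAT and *Pitx1*, a factor of the hindlimb, at 0.0257 and 2.74, both lower in BAT.

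Most Hox genes past 2-fold kept their sign after induction, but not all kept the size of the difference. Of the 19 Hox genes past 2-fold on day 0, 18 had the same sign on day 4 and 17 on day 6, in other libraries, and 16 on both days. The difference on day 6 was 2.11 for *Hoxa5* and -4.01 for *Hoxa10*. It was -0.001 for *Hoxb3*, 0.08 for *Hoxb4*, 0.18 for *Hoxd4* and -0.34 for *Hoxb9*, all under 2-fold. Shares of all genes that kept their sign, relative to length, are given below. On day 4, *Zic1* stood at 3.27 FPKM in BAT against 0.0181 in WAT, and on day 6 at 2.39 against a listed 0. For *Hoxc10* these values were 0.0879 against 20.6 and a listed 0 against 26.2.

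Among the genes kept by the day 0 filter, fewer differed after induction. Genes that first reached 1 FPKM on later days were left out, and the scale understates differences of genes that had become low. Whether the choice of genes accounts for part of the fall in calls was not tested. On day 4, 1.76% of genes were at least 2-fold higher in BAT relative to length and 2.98% lower, and 1.51% and 2.82% on day 6. Of the 1917 genes higher on day 0, 100 (5.22%) were also at least 2-fold higher on day 4 and 43 (2.24%) on day 6. Of the 1508 lower on day 0, 124 (8.22%) were lower on day 4 and 83 (5.504%) on day 6. The same sign on day 4 was shared by 67.4% of the genes higher on day 0 (49.2% of all genes had that sign) and 74.7% of those lower (49.8%), and on day 6 by 41.8% (49.3%) and 47.7% (49.7%). Across 13350 genes the relative difference of day 0 had a Spearman correlation of 0.34 with that of day 4 and -0.07 with that of day 6. At least 2-fold on all 3 days in 1 direction were 10 genes higher and 47 lower in BAT. Among protein-coding genes that reached 10 FPKM, the steadiest on the BAT side were *Zic1* and *Lhx8*, and on the WAT side *Hoxc10*, *Hoxc9*, *Ccl6*, *Spon2* and *Emx2*, ordered by the smallest of the 3 relative differences.

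The largest differences of the whole comparison belonged to predicted genes made of repeated sequence. *Gm10800* stood at 1.97 FPKM in BAT against 14499 in WAT, and 15 genes that share at least 5% of their 25-base words with it, 13 on chromosome 9 and 2 on chromosome 2, summed to 3.14 FPKM in BAT and 25437 in WAT, which is 3.02% of the FPKM sum of that library. Of the 15, 10 were listed at 0 in BAT. The other libraries lay between these extremes, with 1.42% and 0.943% of the sum in BAT and WAT on day 4 and 0.903% and 0.0793% on day 6, so the order of the cell types turned. The first 234 bases of *Gm10800* are shown because they carry the repeat, on the minus strand of NCBIM37 (mm9), with the bases inside 25-base words that also occur in exons of another of the 15 genes in capitals.
Gm10800, chr2:98507225-98507458, minus strand: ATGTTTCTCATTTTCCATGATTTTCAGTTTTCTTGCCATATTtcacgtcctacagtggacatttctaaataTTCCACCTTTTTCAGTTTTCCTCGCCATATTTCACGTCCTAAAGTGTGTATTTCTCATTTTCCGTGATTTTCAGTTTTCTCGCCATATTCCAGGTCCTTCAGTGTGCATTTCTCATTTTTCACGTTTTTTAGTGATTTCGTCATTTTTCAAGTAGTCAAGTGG
Of these bases 205 are shared. The locus repeats itself with a period of 234 bases, and 67.2% of its bases are the same 1 period further on. Mouse pericentromeric heterochromatin is built from a tandem satellite with a unit of this size. Whether the fragments came from these loci or from other copies of the repeat cannot be told apart from FPKM.

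A second family behaved alike. *Gm17646* and 9 other predicted genes, spread over 8 chromosomes, that share at least 50% of their own words with it had a sum of 27.05 FPKM in BAT against 407 in WAT. On day 4 the sums were 205 against 114, and on day 6 114 against 24.5. In both families WAT day 0 was highest and BAT day 4 next, and BAT day 0 and WAT day 6 were the lowest libraries.

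Shared sequence also bears on *Gapdh*. This gene, which encodes a glycolytic enzyme often used as a reference, was at 82.9 FPKM in BAT against 1049.5 in WAT, a relative difference of -3.34. Another 28 measured genes share at least 50% of their words with it, and 11 of them are annotated as pseudogenes and 17 as protein-coding. In BAT the copy *Gm12070* was at 157 FPKM and *Gm13394* at 146, above *Gapdh* itself, but in WAT they were at 31.6 and 81.004. Summed over the 29 genes, the family had 965 FPKM in BAT and 1545 in WAT, which is 0.184% of the FPKM sum of each library. With copies added in proportion to their length, the difference of *Gapdh* went from -3.65 to -0.85.

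**Figure D3:**
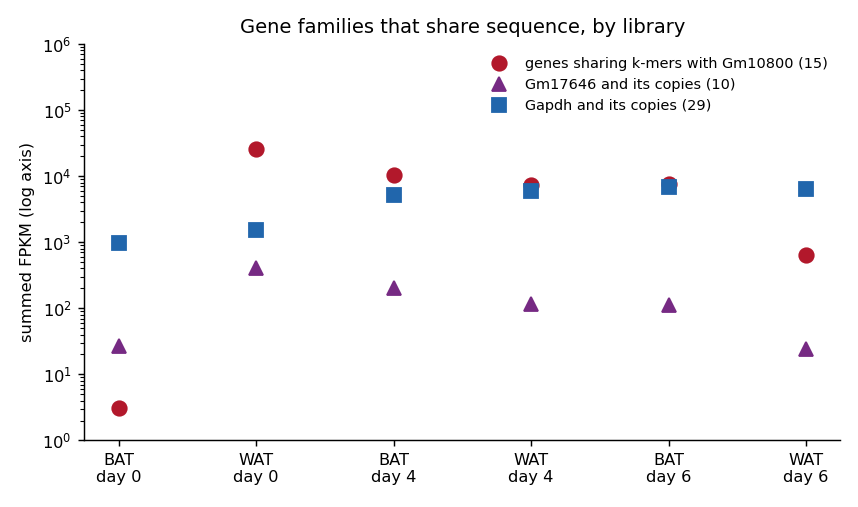
FPKM summed over 3 families of genes that share sequence (log axis), in each of the 6 libraries, 1 point per library. The *Gm10800* family is lowest in BAT day 0 and highest in WAT day 0, and *Gapdh* with its copies differs by less than 2-fold between the day 0 libraries.

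Genes of the actin cytoskeleton and of mechanical signalling were lower in BAT. The factors SRF and YAP switch these genes on when cells spread and pull on their substrate. Of 31 measured genes of this list, 17 were at least 2-fold lower relative to length and 4 higher, with a median of -1.29 (-1.07 before the length comparison). *Cyr61* and *Ctgf*, secreted YAP targets, were at 100.1 FPKM in BAT against 507 in WAT and at 120.2 and 292. *Acta2*, the smooth muscle actin of activated fibroblasts, was at 183 FPKM in BAT against 589 in WAT, *Myl9*, a myosin light chain, at 45.5 and 255, *Tagln* at 134 and 353 and *Tpm2*, a tropomyosin, at 54.6 and 233. *Srf* itself was at 7.75 FPKM in BAT against 17.9996 in WAT. The 4 that were higher were *Vcl*, which encodes the focal adhesion protein vinculin, at 30.4 FPKM in BAT against 1.92 in WAT, *Amotl2* at 85.3 and 51.8, *Lats2*, a kinase that holds YAP back, at 20.6 and 12.1 and *Myh9*, a non-muscle myosin, at 214 and 141. Of 8 measured mural cell markers, which share *Acta2* and *Cnn1* with the list, 5 were at least 2-fold lower relative to length and 0 higher (median -1.31, or -0.62 with a pseudocount of 5). As measured, 3 were lower and 1 higher (median -0.52), and 2 of the 8 passed the filter only through WAT, which fixed their direction. The mural list summed to 200.5 FPKM in BAT and 611 in WAT, most of it *Acta2*, while *Des*, which encodes desmin, was at 0.291 and 1.07. Whether mural cells take part in this difference was not tested, and in bulk RNA fewer cells of a type and less RNA per cell cannot be told apart.

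Immediate early genes, which respond within minutes to serum and stress, were lower in BAT as well. Of 22 measured, 12 were at least 2-fold lower relative to length and 2 higher, with a median of -1.20. *Egr1*, a zinc finger factor, was at 16.3 FPKM in BAT against 72.9 in WAT, *Fos* at 3.43 and 15.96, *Nr4a1*, an orphan nuclear receptor, at 4.82 and 35.02 and *Ier2* at 16.6 and 88.4. Outside the list, *Ppp1r15a*, a phosphatase subunit of the stress response, was at 32.9 FPKM in BAT against 178 in WAT. *Socs3* and *Egr3* went the other way, at 36.01 and 10.98 and 1.62 and 0.0881 FPKM in BAT and WAT. On day 4 the median of the list was 0.13 and on day 6 -0.52.

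Cell cycle genes were lower in BAT relative to genes of similar length. Of 23 genes of S phase, 7 were at least 2-fold lower relative to length and 0 higher (median -0.54), and of 24 genes of G2 and M phase 11 were lower and 0 higher (median -0.81). *Mki67*, the antigen of dividing cells, was at 4.65 FPKM in BAT against 7.69 in WAT, *Top2a*, a topoisomerase of mitosis, at 13.4 and 27.6, *Birc5*, which encodes survivin, at 10.9 and 50.8 and *Ube2c* at 10.2 and 44.3. Of the replication-dependent histone genes, whose RNAs lack a poly(A) tail, 27 of 71 were measured, with a median of 1.87 FPKM in BAT and 1.63 in WAT. Of the 26 with a length, 0 were at least 2-fold lower relative to length and 11 were higher, with a median of 0.82, but 5 were higher and the median was 0.11 against genes of similar length and similar expression. At least 1 near-identical copy was annotated for 21 of the 27, so their fragments may be split.

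Matrix genes divided between the cell types. Of 29 measured collagen chains, 11 were at least 2-fold higher and 2 lower in BAT as measured (median 0.76). Relative to length 4 were higher and 9 lower, with a median of -0.05. The fibrillar chain *Col3a1* was at 3376 FPKM in BAT against 698 in WAT, *Col1a1* at 4004 and 1444, and the basement membrane chain *Col4a5* at 31.8 and 3.12. The chains of collagen VI went the other way, with *Col6a1* at 135 FPKM in BAT against 227 in WAT, *Col6a2* at 72.96 and 170.3 and *Col6a3* at 137 and 260.5. Of 45 matrix glycoproteins and proteoglycans, 15 were higher and 6 lower as measured (median 0.72). Relative to length 5 were higher and 10 lower (median 0.05), and relative to length and expression 10 and 10, so the direction of both lists depended on the comparison. *Nid1* and *Nid2*, the nidogens that link laminin to collagen IV, were at 244 FPKM in BAT against 43.3 in WAT and at 48.4 and 2.897, and *Fn1*, fibronectin, was at 1407 and 357. *Spon1* and *Spon2*, the spondins, were lower in BAT, at 1.42 and 8.92 and 1.701 and 17.6 FPKM, as were *Ltbp4* at 1.64 and 10.3 and *Smoc2* at 19.99 and 80.9. *Thbs4* and *Prg4*, matrix genes of tendon and joint, were at 19.8 FPKM in BAT against 0.4696 in WAT and at 70.8 and 3.61. *Dpp4*, a protease on the surface of early fat progenitors, was at 12.95 FPKM in BAT against 0.557 in WAT, and *Sema3c* at 8.45 and 0.977. *Thbs4*, *Dpp4* and *Sema3c* passed the filter of 1 FPKM only through BAT, which fixed their direction.

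Genes of the Wnt, TGF-beta and BMP, and IGF pathways were more often higher than lower in BAT, while the FGF pathway had a median below 0. In the first 3 lists, 4 of 30, 5 of 43 and 3 of 19 genes passed the filter of 1 FPKM only through BAT. This fixed their direction, and *Bmpr2*, *Bmp4* and *Irs2* below are among them. Only through WAT passed 1, 1 and 0. Of 30 Wnt genes, 15 were at least 2-fold higher in BAT as measured and 1 lower, and relative to length 8 were higher and 3 lower (median 0.46). The receptor *Fzd1* was at 46.4 FPKM in BAT against 6.42 in WAT, the ligand *Wnt16* at 96.8 and 14.4, the secreted agonist *Rspo3* at 12.3 and 1.62 and the secreted inhibitor *Sfrp2* at 182 and 62.7, while the inhibitor *Dkk2* was at 0.346 and 2.85. Of 43 genes of the TGF-beta and BMP pathway 11 were higher and 3 lower relative to length (median 0.30). Receptors stood among the higher ones, with *Acvr1b* at 17.3 FPKM in BAT against 1.65 in WAT, *Bmpr1a* at 29.2 and 8.401 and *Bmpr2* at 8.01 and 0.885, and the ligand *Bmp4* was at 4.63 and 0.521. *Id1*, a direct BMP target, was lower in BAT at 34.2 and 138. Of 19 genes of the IGF pathway 4 were higher and 1 lower (median 0.46), with *Igf2r*, the receptor that clears IGF2, at 34.8 FPKM in BAT against 8.23 in WAT and the adaptor *Irs2* at 7.29 and 0.567. Of 14 FGF genes 4 were higher and 3 lower (median -0.40), and of 18 Notch and Hedgehog genes 3 were higher and 3 lower (median 0.15). Of 12 Kruppel-like factors 6 were higher and 0 lower, a median of 0.90, led by *Klf3* at 28.7 FPKM in BAT against 3.701 in WAT and followed by *Klf7* at 6.79 and 1.63, *Klf15* at 14.7 and 3.13 and *Klf9* at 26.1 and 5.52.

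Genes of complement and of the interferon response were more often higher than lower in BAT. Of 20 complement and acute phase genes 11 were at least 2-fold higher and 3 lower relative to length, with a median of 1.02. *Ptx3*, a pentraxin, was at 703 FPKM in BAT against 197 in WAT, *C1s*, a complement protease, at 282 and 87.4 and *Saa3* at 2094 and 1306. *C4b* and *C2* were lower in BAT, at 117 and 254 and 32.4 and 82.4 FPKM, as was *Cfd*, which encodes the adipocyte protease adipsin, at 68.6 and 431. Of 37 genes of the interferon response and MHC class I, 12 were higher and 2 lower, with a median of 0.70. *Irf1* was at 14.98 FPKM in BAT against 5.17 in WAT, *Ddx58*, the viral RNA sensor RIG-I, at 16.9 and 2.997 and *Stat2* at 36.1 and 7.22. Of 19 measured chemokines, 2 were higher and 5 lower (median -0.45). However, 6 of the 19 passed the filter of 1 FPKM only through WAT, which fixed their direction. The chemokine list summed to 1607 FPKM in BAT and 1320 in WAT. The neutrophil chemokine gene *Cxcl5* was at 90.1 FPKM in BAT against 4.27 in WAT, a relative difference of 4.21, and *Cxcl1* was at 16.6 and 9.57. Complement and interferon genes had the opposite sign on later days, with medians of -0.23 and -0.50 for complement and -0.75 and -0.71 for interferon genes on days 4 and 6. The difference between days was not tested.

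Genes of macrophages were lower in BAT. Of 13 measured of 20 markers, 9 were at least 2-fold lower relative to length and 0 higher (median -1.45). This median rests on low values, at -0.36 with a pseudocount of 5 and -2.01 as TPM, and 8 of the 13 passed the filter of 1 FPKM only through WAT, which fixed their direction. The list summed to 28.7 FPKM in BAT and 120.4 in WAT. *Lyz2*, lysozyme, was at 16.7 FPKM in BAT against 64.98 in WAT, *Cd68* at 1.59 and 9.22, and *Tyrobp*, *C1qb* and *Aif1* were listed at 0 in BAT and stood at 9.33, 5.995 and 2.29 in WAT. *Csf1r*, the receptor that defines the lineage, was at 1.32 and 1.66 FPKM, and 6 of the 20 markers were listed at 0 in BAT, against 0 of the 20 in WAT. Of the chemokines, picked after their values were seen, *Ccl6* was at 1.52 FPKM in BAT against 23.7 in WAT, and *Pf4*, *Ccl3*, *Ccl4* and *Ccl12* were listed at 0 in BAT and lay between 2.04 and 8.03 in WAT. *Stab1*, a scavenger receptor of macrophages and sinusoidal endothelium, was at 0.3398 FPKM in BAT against 34.2 in WAT, though its median annotated transcript of 591 bases is far shorter than its longest of 7999. The macrophage list kept its sign later, with medians of -1.41 on day 4 and -1.72 on day 6.

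Endothelial markers also stood lower in BAT. Of 12 measured, 6 were at least 2-fold lower relative to length and 0 higher (median -0.98, or -0.46 with a pseudocount of 5), and 5 passed the filter only through WAT. In this list stood *Cldn5* at 0.334 FPKM in BAT against 6.797 in WAT, *Emcn* at 1.15 and 8.91 and *Pecam1* at 1.09 and 4.12, and the summed level was 35.3 and 78.9 FPKM. *Cdh5* and *Kdr*, which define the cell type, were at 3.01 and 2.26 and at 1.11 and 1.01, with relative differences of -0.32 and -0.84. Of 19 epithelial, 8 mesothelial, 17 skeletal muscle, 16 lymphocyte and neutrophil and 9 Schwann and neural markers, 1, 1, 2, 2 and 5 were measured. Their summed levels were 3.56, 3.71, 3.25, 1.36 and 11.03 FPKM in BAT and 16.1, 13.7, 10.6, 2.79 and 28.1 in WAT. *Ngfr*, the nerve growth factor receptor of Schwann and some stromal cells, was at 2.201 FPKM in BAT against 18.2 in WAT. The part of these other cell types in the differences between BAT and WAT was not tested.

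Genes of the mature fat cell were mostly lower in BAT. Of 28 adipocyte genes 9 were at least 2-fold lower in BAT relative to length and 1 higher, with a median of -0.64. Of these 28, 2 passed the filter only through WAT. *Fabp4*, the fatty acid binding protein of fat cells, was at 297 FPKM in BAT against 1052 in WAT, and *Gpd1*, *Thrsp* and *Slc2a4* were at 3.77 and 15.6, 1.56 and 10.5 and 0.332 and 2.57. *Pparg*, the regulator of fat cell formation, was at 19.6 and 11.9998 and *Dgat2*, an enzyme of triglyceride synthesis, at 18.9 and 6.31, both higher in BAT. The effector genes of brown fat were mostly lower in BAT as well. Of 13 measured, 5 were at least 2-fold lower relative to length and 0 higher. Of these 13, 3 passed the filter only through WAT, *Ucp1* and *Cidea* among them, which fixed their direction. *Ucp1* and *Cidea* were listed at 0 in BAT and stood at 1.49 and 2.43 FPKM in WAT, and *Cox8b* was at 1.88 FPKM in BAT against 13.6 in WAT. The median of the list was -0.68 on day 0 (-0.27 with a pseudocount of 5), 0.43 on day 4 and 0.74 on day 6, and the difference between days was not tested. Of 15 brown lineage regulators 0 passed 2-fold relative to length in either direction. *Ebf2* was at 6.43 and 2.12, *Prdm16* at 1.303 and 0.4099 and *Ppargc1a* at 2.15 and 1.36 FPKM in BAT and WAT. White and beige markers were lower in BAT, 7 of 9 measured by at least 2-fold relative to length (3 of the 9 passed the filter only through WAT), among them *Hoxc9* and *Hoxc10*, *Retn*, which encodes the adipokine resistin, at 6.34 FPKM in BAT against 24.7 in WAT and *Psat1*, an enzyme of serine synthesis, at 78.7 and 146. *Adipoq*, which encodes adiponectin, was at 58.9 and 122.

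Genes of sterol synthesis were more often higher in BAT. Of 24 genes of cholesterol synthesis and uptake 8 were at least 2-fold higher relative to length and 0 lower, with a median of 0.51. *Lss*, lanosterol synthase, was at 55.005 FPKM in BAT against 7.85 in WAT and *Idi1* at 69.9 and 17.02. *Fdps* and *Fdft1*, other enzymes of the same route, were at 229 and 428 and 65.9 and 81.9. On day 4 and day 6 the medians of the list were -0.23 and -0.26.

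Families of short housekeeping genes were lower in BAT, by less when set against genes of similar length. Cytosolic ribosomal protein genes, whose median transcript is 722 bases, had a median FPKM of 775 in BAT and 2533 in WAT, and 74 of 80 were at least 2-fold lower in BAT. Relative to length 45 of 79 were, and the median went from -1.63 to -1.04. Against genes of similar length and similar expression it was -0.52, and 8 of 79 were at least 2-fold lower, a share under the background of 11.5%. *Rpl23*, which the study used as an internal control for its PCR, was at 763 FPKM in BAT against 3169 in WAT, a relative difference of -1.53. *Rps20* was at 761.6 FPKM in BAT against 4503 in WAT, though the length taken for it, 3706 bases, is far above the median of the family. The difference was as large without near-identical copies. The 18 members with no copy found had a median difference of -1.62, and with FPKM summed over each gene and its copies the median of the family was -1.62.

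Nuclear genes of the respiratory chain were lower as well. For complex I the median was -1.38 as measured, -0.89 relative to length and -0.45 relative to length and expression, for complexes II to IV and cytochrome c -1.21, -0.74 and -0.22, and for ATP synthase -1.35, -0.88 and -0.30. Mitochondrial ribosomal proteins stood at -1.08, -0.63 and -0.40 and proteasome subunits at -0.80, -0.61 and -0.25. All kept their sign in each of these comparisons and were over 1.5 times smaller in the last than in the first. Relative to length, 0 genes of complex I, of ATP synthase, of the mitochondrial ribosome and of the proteasome were at least 2-fold higher in BAT, and 16 of 37, 7 of 16, 21 of 76 and 2 of 37 were lower. Of complexes II to IV 5 of 23 were lower. Relative to length and expression 9 of 37, 1 of 16, 13 of 76 and 1 of 37 were lower, and 0 of 23 of complexes II to IV, so ATP synthase, complexes II to IV and the proteasome lay under the background of 11.5%.

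Chromatin regulators with long transcripts and Zfp zinc finger genes lay on the other side. Of 33 chromatin regulators with long transcripts 21 were at least 2-fold higher in BAT as measured and 0 lower (median 1.26). Relative to length 7 were higher and 1 lower (median 0.38), and relative to length and expression 5 and 1 (median 0.36). Of 303 Zfp zinc finger genes 107 were higher and 6 lower as measured, and 73 and 11 relative to length (median 0.32). Relative to length and expression 52 were higher and 13 lower (median 0.21). Of the 303, 96 passed the filter only through BAT and 1 only through WAT, which fixed their direction. The median length of the Zfp genes, 2508 bases, is near the 2260.5 of all measured protein-coding genes. *Pds5a*, a cohesin cofactor, was at 19.9 FPKM in BAT against 0.6598 in WAT and *Dag1*, dystroglycan, at 51.9 and 3.39, with relative differences of 3.04 and 2.79.

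**Figure D4:**
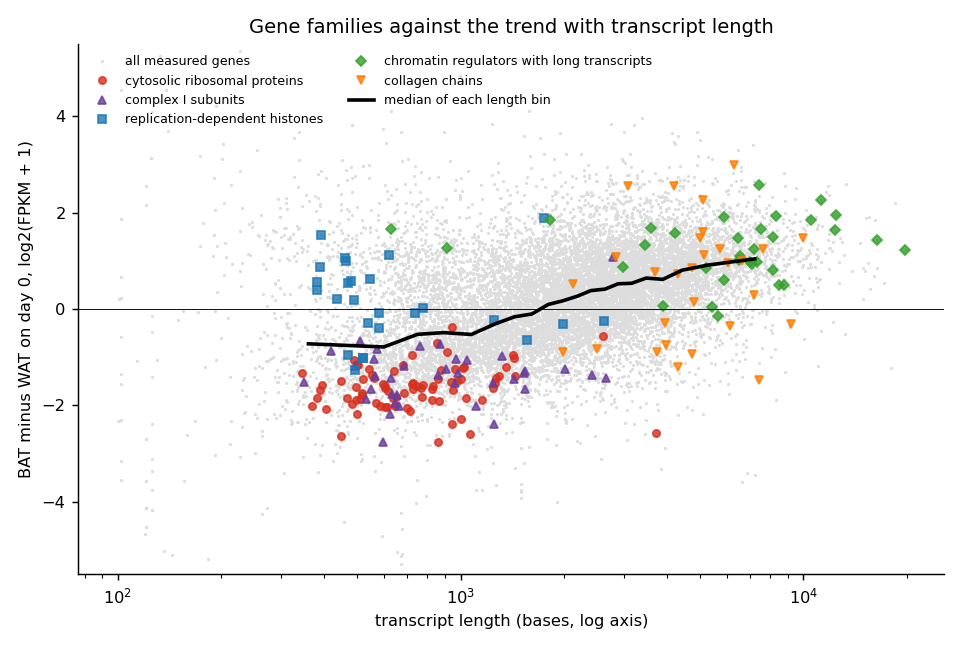
Difference between BAT and WAT on day 0, in log2(FPKM + 1), against transcript length (log axis) for all measured genes, with 5 gene families in colour and the median of each length bin as a line. The 26 genes beyond 5.5 in either direction are not drawn. Ribosomal protein genes lie mostly below the line and histone genes of similar length mostly on or above it.

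**Figure D5:**
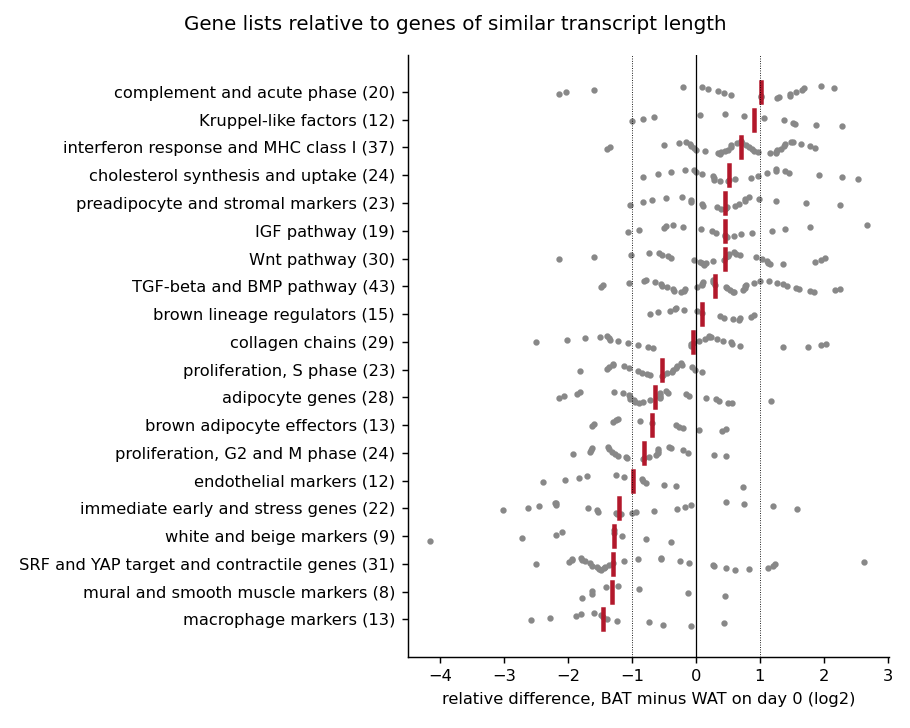
Relative difference of each measured member (points, number in brackets) and the median (bar) of 20 gene lists on day 0, with dotted lines at 2-fold. Macrophage, contractile, immediate early and white markers lie to the left, and complement, interferon and cholesterol genes to the right.

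Among the 6885 protein-coding genes that reached 10 FPKM in either library, 12 were listed at 0 in 1 of them and are given apart. Besides *Hoxc10* and 9 members of the *Gm10800* family, which were at 0 in BAT, these were *Gm2399* and *Gm17527*, predicted genes of 228 and 194 bases at 0 in WAT. The rest were split into 5 groups of equal size by length, and the 5 highest and 5 lowest relative differences of each were taken, 50 genes in all. In the shortest group, up to 1048.5 bases, the highest were *Gm7292*, *Apol7d*, *Gm10240*, *Fndc1* and *2900097C17Rik*. *Apol7d*, an apolipoprotein L gene, was at 95.6 FPKM in BAT against 4.602 in WAT. *Fndc1*, a fibronectin domain gene, was at 21.5 FPKM in BAT against 0.751 in WAT, and its longest transcript of 5845 bases is far above the 669 taken for it. *Gm10240* was at 176 FPKM in BAT against 11.5 in WAT, but with its 27 copies summed the difference was -1.98. The lowest were 4 members of the *Gm10800* family and *Stab1*.

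In the second group the highest were *Cxcl5*, *Gm9853*, *Gm14325*, *E2f6* and *Rtn4rl2*. *E2f6*, a repressor of the E2F family, was at 54.4 FPKM in BAT against 5.74 in WAT, and *Rtn4rl2*, a receptor of the Nogo receptor family, at 41.3 and 4.93. The lowest were 4 members of the *Gm17646* family and *Gapdh*. In the middle group *Slc25a30*, a mitochondrial carrier, was at 12.4 FPKM in BAT against 0.143 in WAT, *Il1rl2*, the interleukin 36 receptor, at 24.7 and 1.05, *Zfp146* at 29.1 and 2.25, *Rsc1a1* at 10.6 and 0.255 and *Accn3*, an acid-sensing ion channel, at 20.3 and 1.48. The lowest of that group were *Spon2*, *Rpp40*, *Fxyd6*, *Ppp1r15a* and *Cyr61*, with *Rpp40*, a subunit of ribonuclease P, at 3.11 FPKM in BAT against 27.99 in WAT and *Fxyd6*, a regulator of the sodium pump, at 3.05 and 25.4.

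In the next group *Zic1*, *Prg4*, *Thbs4*, *Slfn5* and *Ipo7* were highest. *Slfn5*, an interferon-inducible gene, was at 97.6 FPKM in BAT against 6.71 in WAT, and *Ipo7*, a nuclear import receptor, at 32.2 and 2.56. *Ngfr*, *Nr4a1*, *Grtp1*, *Uap1l1* and *Egr1* were lowest, with *Uap1l1*, a homolog of a sugar nucleotide enzyme, at 89.4 FPKM in BAT against 366 in WAT. Among the longest transcripts *Pds5a*, *Dag1*, *Nid2*, *Tubgcp4* and *Vcl* were highest, and *Gm17646*, *Gm17492*, *Ulk4*, *Rps20* and *Zfp488* lowest. *Tubgcp4*, a subunit of the gamma-tubulin complex, was at 17.5 FPKM in BAT against 0.6799 in WAT and *Ulk4*, a pseudokinase, at 3.26 and 30.5. Of the 50 genes, 26 had the same sign relative to length on day 4 and 20 on day 6, and 15 have at least 1 near-identical copy.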

How the data were processed

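RNA-seq values of the BAT and WAT preadipocyte libraries of day 0 were compared, with the libraries of days 4 and 6 beside them. Per the labels and the methods of the study, the authors sequenced directional libraries from extracts of total RNA in paired ends of 100 bases, aligned them to mm9 with TopHat2 2.0.11 and deposited 1 FPKM value per gene and library from Cufflinks 2.1.1. Whether RNA with a poly(A) tail was selected was not given in the sources used here, and no fragment counts were used. Of 37841 entries, 3376 with a repeated symbol were left out in favour of the entry with the highest mean.

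Values were transformed as log2(FPKM + 1). Genes with an FPKM of 1 or more in either day 0 library were kept. Transcript length was the median over the transcripts of a gene in GENCODE M1 (of a protein-coding gene, over its protein-coding transcripts), and 20 bins of equal size were used. The 2-fold rule is a description, since 1 library per side allows no test. In a further comparison length bins were set within 10 bins of mean expression. Copies are genes elsewhere in the genome that share at least 50% of the 25-base words of the shorter of a pair (1 word in 8 was used). The steps between low values gave an estimate of depth, at which 89.4% (BAT) and 85.6% (WAT) of low values lay within 0.1 of a whole fragment.

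The members and lists were chosen with earlier results of these data known. Named genes are the 5 highest and 5 lowest relative differences in each of 5 length groups of protein-coding genes that reached 10 FPKM, with genes listed at 0 apart, and in addition Hox genes, genes named in the study and members of the lists. The alternatives were pseudocounts of 0.1 and 5, filters of 0 and 5 FPKM, median-ratio and TPM scaling, protein-coding genes alone, genes with no exact 0, summed entries, rules of 1.5-fold and 4-fold, and other lengths, bins and a lowess. Removal of the repeat families and FPKM summed over copies were added after the data were seen. Only the length-bin step was tested on simulated data, without genes of low expression. The work was done in Python 3.11.15 with scipy 1.17.1, pandas 2.3.3, statsmodels 0.14.6, numpy 2.4.6 and matplotlib 3.10.9. Methylation and norepinephrine-treated cells were not analysed here.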

Additional observations from a re-analysis of the deposited data

Results flagged for a closer look

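Relative to length, 31 of 84 gene list medians had the opposite sign to day 0 on day 4, 51 on day 6 and 27 on both days. The 7 lists given here are those with a median of at least 0.5 in size on day 0 and of the opposite sign and at least 0.4 in size on day 6, and 2 repeat families are added. The difference between days was not tested. Relative to genes of similar length, the median of the brown adipocyte effectors was -0.68 on day 0, 0.43 on day 4 and 0.74 on day 6. Of its 13 measured members, 3 passed the day 0 filter only through WAT. The list of genes named in the study, which includes members of other lists, stood at -0.72, 0.50 and 0.45. Complex I subunits stood at -0.89, 0.01 and 0.49, and complexes II to IV with cytochrome c at -0.74, 0.06 and 0.54.

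Interferon response and MHC class I genes stood at 0.70 on day 0, -0.75 on day 4 and -0.71 on day 6. Complement and acute phase genes stood at 1.02, -0.23 and -0.50. The Kruppel-like factors stood at 0.90, 0.12 and -0.52, the same sign on days 0 and 4.

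The summed FPKM of the *Gm10800* family differed by -12.59 on the log2 scale on day 0, 0.51 on day 4 and 3.57 on day 6, and that of the *Gm17646* family by -3.86, 0.83 and 2.17. Both are sums over genes that share sequence.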

How the results depend on the processing

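As measured, 2988 genes were higher and 1867 lower in BAT. With a pseudocount of 5 these were 1138 and 1152, as TPM 6100 and 854, by a 1.5-fold rule 5032 and 3114 and by a 4-fold rule 483 and 315. Relative to length, 1917 were higher and 1508 lower. With a pseudocount of 5 these were 813 and 891, over genes with a single annotated transcript, which are fewer, 666 and 438, by a 1.5-fold rule 3367 and 3121 and by a 4-fold rule 433 and 256. The other alternatives that were run moved these 4 counts by less than 1.5 times. The share higher relative to length was 41.9% with bins of GC content, against 56.0%, and the cause was not tested. The correlation with length over all genes was 0.43 and lay between 0.39 and 0.49 under its alternatives.

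As TPM, 16 list medians before the length comparison changed sign, among them adipocyte genes (-0.65 to 0.00) and genes of S phase (-0.60 to 0.06) and of G2 and M phase (-0.51 to 0.06). Relative to length 12 changed sign in bins of length within expression, from values of at most 0.36 in size, and 7 or fewer under any other alternative, from at most 0.22. With a tolerance of 0.5, 78 of 168 list values moved as TPM, 14 with a pseudocount of 5, 5 of 84 in bins of length within expression and 2 of 168 with copies summed. Of 85 named genes, 58 moved with a pseudocount of 5, 10 as TPM, 8 in bins of length within expression and 6 with copies summed, where *Gm10240* changed its sign (-1.13 relative to length, against 4.60), an alternative added after the data were seen. No paired analysis was possible because each condition had 1 library, and no library could be left out for the same reason. Low values are limited by the depth of WAT, and exact zeros may be failed estimates.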

Other observations

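RNAs of the mitochondrial genome, which come from a few long precursors, did not move together. Of 15 measured, differences ran from -3.06 to 1.91, with *mt-Nd3* at 482 FPKM in BAT against 4043 in WAT and *mt-Nd4l* at 397 against 105. Relative to length 6 were at least 2-fold lower in BAT and 2 higher.

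Among 36 measured axon guidance genes, 7 were at least 2-fold higher relative to length and 3 lower, beside 14.4% and 11.3% of all genes. Of these 36, 9 passed the filter of 1 FPKM only through BAT and 1 only through WAT, which fixed their direction. *Efna5* below is among the 9. *Efna5*, an ephrin, was at 7.61 FPKM in BAT against 0.611 in WAT, *Slit3*, a secreted guidance cue, at 143 against 30.4, and *Plxnb2*, a semaphorin receptor, at 77.3 against 188. In the FGF pathway, values differed between ligands, receptors and targets. The ligand *Fgf18* was at 12.2 FPKM in BAT against 2.55 in WAT and the receptor *Fgfr1* at 177 against 57.6, but *Dusp6* and *Etv4*, which FGF signalling switches on, were at 2.82 against 5.63 and at 1.25 against 3.69. Of 14 retinoid genes 1 was higher and 4 lower.

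Of 21 major urinary protein genes, near-identical copies, 6 were listed at 0 in both libraries, and the 15 others were at most 0.492 FPKM in BAT (*Mup17*) and 5.88 in WAT (*Mup10*). The 11 that were measured all passed the filter of 1 FPKM through WAT alone, which fixed their direction. *Xist*, the RNA of the inactive X chromosome, was at 119 FPKM in BAT against 298 in WAT, and *Eif2s3y*, on the Y chromosome, at 2.18 against 0.256.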
